A study of Mus musculus with 2 samples.

Results

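Closed CpG-rich promoters were gene starts in CpG-rich DNA at which neither kidney library had a DNase I peak. The members were chosen from the peak files themselves. A promoter was the 1 kb on each side of the 5'-most annotated start of a protein-coding gene on an autosome (GENCODE M21, mm10). It was CpG-rich when the ratio of observed to expected CpG was at least 0.75 over 1001 bp centred on the start, and closed when no peak of any of the 4 peak files, 2 per library, overlapped it by at least 1 base. The rule found 156 members among 5924 CpG-rich promoters and 20807 autosomal promoters in all. That is 2.63% of the CpG-rich promoters.

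The study holds 1 group of 2 DNase-seq libraries. DNase I cuts DNA most readily where nucleosomes are absent, so a peak of cuts marks accessible chromatin. Both libraries came from kidney tissue of B6CASTF1/J mice, the hybrid offspring of C57BL/6J and CAST/EiJ, all female and 36 days old. No animal carried an engineered allele or received an agent per the labels, and there was no other tissue, time or treatment. The animals are numbered apart and labelled biological replicates 1 and 2, but both samples list the same donor entry. Kidney tissue mixes many cell types, so a promoter open in a rare type can lack a peak, and fewer cells of a type cannot be told apart from less accessibility per cell.

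In mammals most CpG is methylated and has been lost over evolution, while CpG islands stay unmethylated and keep their CpG. Most islands lie at promoters and are accessible in nearly every tissue. Exceptions are known. Islands of developmental regulators are held silent by Polycomb complexes outside their own lineage, some germline genes are silenced in the body by DNA methylation and by repressors that bind E-box and E2F sites, and one parental allele is methylated at imprinted genes. None of these marks was measured here.

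The 200 bases before the start are shown for 3 members with CpG capitalised, to show how dense CpG can be at a start where no peak was called. Barhl2 encodes a homeodomain factor of retina and brain, Hoxd13 a homeodomain factor of the distal limb and hind gut, and Grik3 a kainate receptor subunit. The bases are those of the C57BL/6J reference (RefSeq, GRCm38.p6, the mm10 sequence), 5′ to 3′ in the direction of transcription, and none overlaps an annotated exon.
Barhl2, chr5:106458167-106458366, reverse strand: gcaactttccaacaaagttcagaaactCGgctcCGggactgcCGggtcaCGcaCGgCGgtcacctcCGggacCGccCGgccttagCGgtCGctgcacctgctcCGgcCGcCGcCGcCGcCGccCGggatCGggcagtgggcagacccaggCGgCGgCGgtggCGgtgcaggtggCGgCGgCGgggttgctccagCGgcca
Hoxd13, chr2:74668110-74668309, forward strand: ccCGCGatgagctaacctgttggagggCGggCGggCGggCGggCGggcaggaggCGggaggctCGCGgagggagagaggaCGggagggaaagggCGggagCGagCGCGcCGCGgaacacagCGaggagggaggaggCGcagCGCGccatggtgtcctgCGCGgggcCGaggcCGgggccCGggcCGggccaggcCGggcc
Grik3, chr4:125490500-125490699, forward strand: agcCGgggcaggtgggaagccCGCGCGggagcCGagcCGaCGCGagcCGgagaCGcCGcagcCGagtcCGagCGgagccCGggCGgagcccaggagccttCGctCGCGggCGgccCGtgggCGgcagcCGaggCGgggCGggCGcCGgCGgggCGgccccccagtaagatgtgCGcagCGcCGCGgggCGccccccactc
These stretches held 27, 28 and 34 CpG, with a GC content of 74.5%, 79.5% and 82.5%.

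Fkbp6, a protein of the piRNA pathway of male germ cells, and Slc25a31, the ADP/ATP carrier of male germ cells, are shown with the E-box CACGTG in capitals, since it is the site that germline repressors are known to bind.
Fkbp6, chr5:135350045-135350244, reverse strand: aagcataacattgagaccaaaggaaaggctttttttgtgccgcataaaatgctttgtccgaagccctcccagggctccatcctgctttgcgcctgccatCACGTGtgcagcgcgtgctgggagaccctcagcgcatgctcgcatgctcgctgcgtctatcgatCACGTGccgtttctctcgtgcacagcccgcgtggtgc
Slc25a31, chr3:40708655-40708854, forward strand: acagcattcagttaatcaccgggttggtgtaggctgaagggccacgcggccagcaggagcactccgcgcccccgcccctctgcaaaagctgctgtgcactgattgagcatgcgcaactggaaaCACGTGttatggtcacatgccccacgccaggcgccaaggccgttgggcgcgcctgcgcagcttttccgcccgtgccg
Fkbp6 had 2 such sites within 200 bases and Slc25a31 had 1. The other germ cell genes among the members had none within 500 bp of the start. The share of promoters with this site is given further on.

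For comparison, the same stretch is shown for 2 CpG-rich promoters with tall peaks in both libraries. Capitals mark the ETS-type site CCGGAAG or its reverse complement.
Mplkip, chr13:17694992-17695191, forward strand: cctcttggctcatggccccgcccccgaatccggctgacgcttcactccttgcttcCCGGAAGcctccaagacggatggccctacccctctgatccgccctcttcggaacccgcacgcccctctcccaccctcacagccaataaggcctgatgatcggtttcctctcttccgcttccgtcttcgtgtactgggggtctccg
Hdgfl2, chr17:56079434-56079633, forward strand: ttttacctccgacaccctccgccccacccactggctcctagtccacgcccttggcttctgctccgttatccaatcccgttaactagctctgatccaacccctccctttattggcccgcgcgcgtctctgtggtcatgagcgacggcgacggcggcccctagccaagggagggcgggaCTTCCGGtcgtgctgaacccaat
The peak heights were 39.2 in replicate 1 and 33.5 in replicate 2 at Mplkip, and 33.9 in both at Hdgfl2. Heights are the authors' own, on a scale the sources used here do not give, and describe peaks within a library only. The ETS site is shown because its share differed most between closed and open CpG-rich promoters, as described further on.

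The peak sets of the libraries were of unequal size. Replicate 1 had 124504 peaks in the stricter set and 178270 in the wider set, and replicate 2 had 68056 and 103495. No source used here states how many reads were sequenced, so the depth behind an absent peak is unknown. Of the 30 kidney tubule, podocyte and endothelial markers, 28 had a stricter-set peak at the promoter in replicate 1 and 23 in replicate 2. Of 30 immune, muscle, liver and skin markers, 3 had one in each library. Of 22 housekeeping genes, 21 did in each. The tissue label thus matched the kidney markers, although the first starts of Slc34a1, a phosphate transporter of the proximal tubule, and Pecam1, an endothelial adhesion protein, had no peak in any file.

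Closure was rare where CpG was dense. Among all autosomal promoters the share without a peak was 90.1% at a ratio below 0.1, 25.9% between 0.4 and 0.5, and 2.11% at 0.9 or more. Of the CpG-poor promoters 43.8% had no peak, and of all autosomal promoters 32.1%. Within the CpG-rich class, 5427 promoters (91.6%) had a stricter-set peak in both libraries and are called open below. A further 231 had one in replicate 1 only, 4 in replicate 2 only, and 106 had a peak of the wider set alone. Replicate 1 by itself left 161 CpG-rich promoters (2.72%) without a peak, and replicate 2 left 328 (5.54%). The number therefore rested mainly on the library with more peaks. All but 5 of those 161 also lacked a peak in replicate 2.

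**Figure D1:**
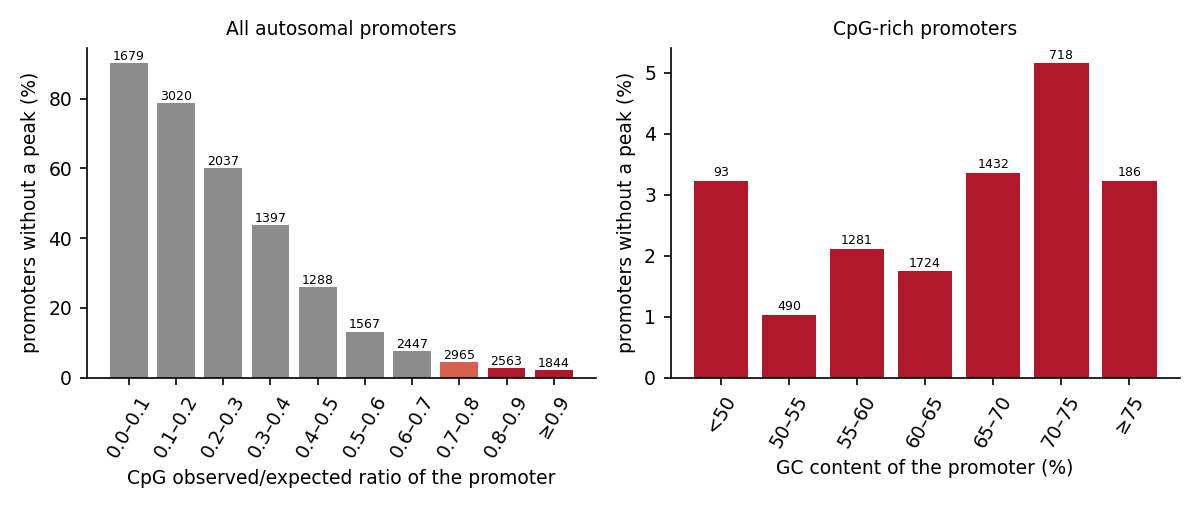
Share of promoters without a peak in any of the 4 peak files (vertical axis, percent), for all autosomal promoters by CpG observed/expected ratio (left) and for CpG-rich promoters by GC content (right); the number of promoters stands above each bar. The share falls from 90.1% to 2.11% along the CpG ratio, whereas along GC content it lies between 1.02% and 5.15%, highest at 70% to 75%.

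The members were not the CpG-poor edge of the class. Their median ratio was 0.826 (lowest 0.752, highest 1.08) and that of the open promoters 0.852. Their GC content was higher, with a median of 66.5% against 62.9%. It was 66.9% at the 341 CpG-rich promoters with a peak in 1 library or in the wider set only. A high GC content was thus not a trait of closed promoters alone. By GC content, closure was least common at 50% to 55% (5 of 490, 1.02%) and most common at 70% to 75% (37 of 718, 5.15%). The part of base composition in the peak calls was not tested. At the lower bound of the rule the members were Hoxc11 (0.752), Nrg1 (0.752), Slc25a31 (0.753), Olig2 (0.756) and Gm9833 (0.756). Just below it, without a peak but not CpG-rich, were Gm10715, Pcdha6, Rprml and Dchs2 (0.749 each) and Wnt3a (0.748).

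The CpG-dense stretch reached as far into the gene as at open promoters, or farther. From 501 to 1500 bp downstream of the start the median ratio was 0.496 in members and 0.449 in open promoters, and from 1501 to 2500 bp it was 0.237 and 0.214. A ratio of 0.75 or more at 1501 to 2500 bp was found in 7 of 156 members (4.49%) and in 47 of 5427 open promoters (0.866%). Upstream from 501 to 1500 bp the medians were 0.280 and 0.296. Among role groups, the 29 members that encode transcription factors had the highest median ratio at 501 to 1500 bp downstream, 0.680, and the 6 germ cell genes the lowest, 0.313.

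Of the 156 members, 99 were given a role by hand after the members were known. Transcription factors (29), channels, receptors and synaptic proteins (32) and neuronal adhesion, cytoskeletal or RNA-binding proteins (16) made up 77 of them, or 49.4% of all members. The rest of the 99 were 8 secreted signals, 6 germ cell genes, 5 core histone genes and 3 imprinted genes. Since these groups were made from the members, their sizes are a description. With 1 group of libraries, and members chosen by the peaks, no test is given for any count or share here. The gene lists that follow have members and non-members alike, and each count is read against the 2.63% of all CpG-rich promoters that were closed. The lists too were chosen with earlier results of these data known, so their shares are also a description.

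Transcription factors of neural development were closed at 11 of their 30 CpG-rich promoters (36.7%), and 3 of the 30 were open in both libraries. The closed ones were Barhl2, Tlx3, Bhlhe23, Nkx2-4, Gbx1, Hmx1, Evx2, Foxd3, Tlx2, Otx2 and Olig2. Distances from a start to the nearest peak, here and below, are to the stricter set unless all 4 files are named. A wider-set peak can lie nearer. Otx2, a homeodomain factor of forebrain and retina, had its nearest stricter-set peak 35725 bp away in replicate 1 and 48559 bp away in replicate 2. With all 4 files counted, the nearest peak to Otx2 was 8279 bp away. Olig2, a factor of oligodendrocytes and motor neurons, had its nearest stricter-set peak at 30464 and 30404 bp. Barhl2 had the second highest CpG ratio of all members, 1.07, with the nearest peak at 3855 bp in replicate 1 and 49815 bp in replicate 2. At Barhl2 the nearer peak was seen in replicate 1 alone, whereas at Olig2 both libraries had a peak at about the same place. Of the 85 autosomal genes on this list a further 36 had a CpG-poor promoter without a peak.

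Factors of heart, muscle, gut, blood and skeleton were closed at 3 of 12 CpG-rich promoters (25.0%) and open in both libraries at 4. The closed ones were Barx1, a factor of stomach and teeth, Foxf2, a forkhead factor of gut mesenchyme, and Cdx1, a homeodomain factor of the intestine. The nearest stricter-set peaks to Barx1 were 7078 bp away in replicate 1 and 8938 bp in replicate 2. Those to Cdx1 were 3722 and 8893 bp away, and those to Foxf2 6765 and 47096 bp. In all 3 the peak of replicate 1 was nearer. With all 4 files counted, a peak lay 2918 bp from Barx1.

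Hox genes, which pattern the body axis, lie in 4 clusters ordered from anterior to posterior. Of 39 Hox genes 11 had a CpG-rich first promoter, and 4 of these were closed (36.4%), namely Hoxa13, Hoxd13, Hoxc12 and Hoxc11. All 4 belong to the posterior groups 11 to 13. The other 7 were Hoxa4, Hoxa5, Hoxb5, Hoxb7 and Hoxd9 with a stricter-set peak in both libraries, and Hoxb9 and Hoxd1 with one in replicate 1 only. The highest group number among these 7 was 9. Posterior genes were not all closed, since Hoxc13, with a ratio of 0.704 and thus outside the CpG-rich class, had stricter-set peaks in both libraries. Outside that class 7 Hox promoters had no peak in any file. Among them were Hoxa2, Hoxb3, Hoxc4 and Hoxb8 (ratio 0.741), of lower group numbers, beside Hoxb13, Hoxd11 and Hoxd12. The split by group number thus held for the CpG-rich Hox promoters only. The nearest peak to Hoxd13 was 4470 bp away in replicate 1, with a height of 1.77, and 18096 bp away in replicate 2, with a height of 3.23. For Hoxa13 the distances were 3660 and 10010 bp. Evx2, the homeodomain gene beside the Hoxd cluster, was closed as well, 8753 bp from Hoxd13, and Hoxc12 and Hoxc11 started 17670 bp apart. These were 2 of 8 runs in which members were direct neighbours among protein-coding genes.

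Ligands of the WNT, FGF and BMP families were closed at 3 of 18 CpG-rich promoters (16.7%) and open in both libraries at 8. Fgf8, a growth factor of embryonic limb and brain, had its nearest peaks 3586 and 3566 bp away in replicates 1 and 2. Gdf7, a BMP family ligand, had them at 4687 and 4671 bp. Wnt5b differed in having a peak at another of its starts, given below. Among other secreted signals, Gdnf was a member. It encodes the ligand of RET that directs ureteric bud outgrowth in the embryonic kidney. Its nearest peak was 2015 bp away in replicate 1, with a height of 1.04, and 166093 bp away in replicate 2.

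Neurotransmitter receptor subunits had the highest closed share of the lists, 6 of 13 CpG-rich promoters (46.2%), with 3 open in both libraries. The closed ones were the glutamate receptor genes Grik3, Grid1 and Grin2a, the serotonin receptor gene Htr7, the GABA receptor gene Gabra5 and the glycine receptor gene Glrb. Grik3 had its nearest stricter-set peak 33260 bp away in each library, with heights of 1.52 and 1.47. Glrb had it 45041 and 45027 bp away, and Gabra5 26877 bp away in replicate 1 and 151910 bp in replicate 2. With all 4 files counted, a peak lay 12359 bp from Grik3 and 22281 bp from Glrb. Grid1 was closed at its start although 8 shared peaks lay in the gene or within 10 kb of it. A shared peak is a stricter-set peak of replicate 1 that overlaps one of replicate 2.

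Voltage-gated ion channels were closed at 3 of 21 CpG-rich promoters (14.3%), among them those of the calcium channel gene Cacna1i and the pacemaker channel gene Hcn2, and 7 were open. Synaptic vesicle and neuropeptide genes were closed at 4 of 14 (28.6%), with 5 open. These were Nefl, the neurofilament light chain, Elavl3, a neuronal RNA-binding protein, and the vesicular transporters Slc18a3 for acetylcholine and Slc32a1 for GABA. The nearest peaks were close at Elavl3, 1203 and 1204 bp away, and far at Nefl, 15783 and 32079 bp away. A promoter could thus be closed with accessible sites in both libraries just beyond its window.

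Germline lists gave few members. Few of their promoters were CpG-rich. Many of those were open in both libraries, although on the embryonic stem cell list only 1 of 5 was. Of 4 CpG-rich promoters of the piRNA list Fkbp6 was closed (25.0%) and 2 were open. Of 6 of the sperm list Slc25a31 was closed (16.7%) and 5 were open. The nearest stricter-set peak to Fkbp6 was 7657 bp away in replicate 1 and 7640 bp in replicate 2, and that to Slc25a31 3755 bp away in both. With all 4 files counted, a peak lay 3732 bp from Fkbp6 and 3269 bp from Slc25a31. None of the 4 CpG-rich promoters of the meiosis list, none of 5 of the embryonic stem cell list and not the single one of the oocyte list was closed. All promoters of these 3 lists without a peak were therefore CpG-poor, and they belonged to 19 of 35, 16 of 27 and 22 of 27 autosomal genes. Other male germ cell genes among the members were Tcfl5, Hsf5, Zfp541 and Papolb. The E-box was found within 500 bp of the start in 2 of these 6, Fkbp6 and Slc25a31. It was in 34 of all 156 members (21.8%), in 23.2% of open CpG-rich promoters and in 17.3% of all autosomal promoters.

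Most other lists were near the background or too short to be told from it, with the histone genes, described further on, above it. Zfp-named zinc finger genes were closed at 3 of 85 CpG-rich promoters (3.53%), with Zfp536 and Zfp804a, 2 zinc finger genes, and the spermatocyte gene Zfp541. None of 14 housekeeping promoters, none of 10 of the axoneme list, none of 4 of the kidney marker list and none of 2 of the clustered protocadherins was closed. The members included 3 imprinted genes, although no list of imprinted genes was made. Nnat, which is expressed from the paternal allele, had its nearest peak 1183 bp from the start in both libraries, with heights of 10.4 and 5.72. Zdbf2, also paternally expressed, had no stricter-set peak within 80712 bp in replicate 1 or 91945 bp in replicate 2, and Rasgrf1 none within 30648 and 82608 bp. Nnat therefore had a tall peak next to its window, and the other 2 had no stricter-set peak near. With all 4 files counted, a peak lay 20625 bp from Zdbf2. Reads of the C57BL/6J and CAST/EiJ alleles were not told apart here.

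**Figure D2:**
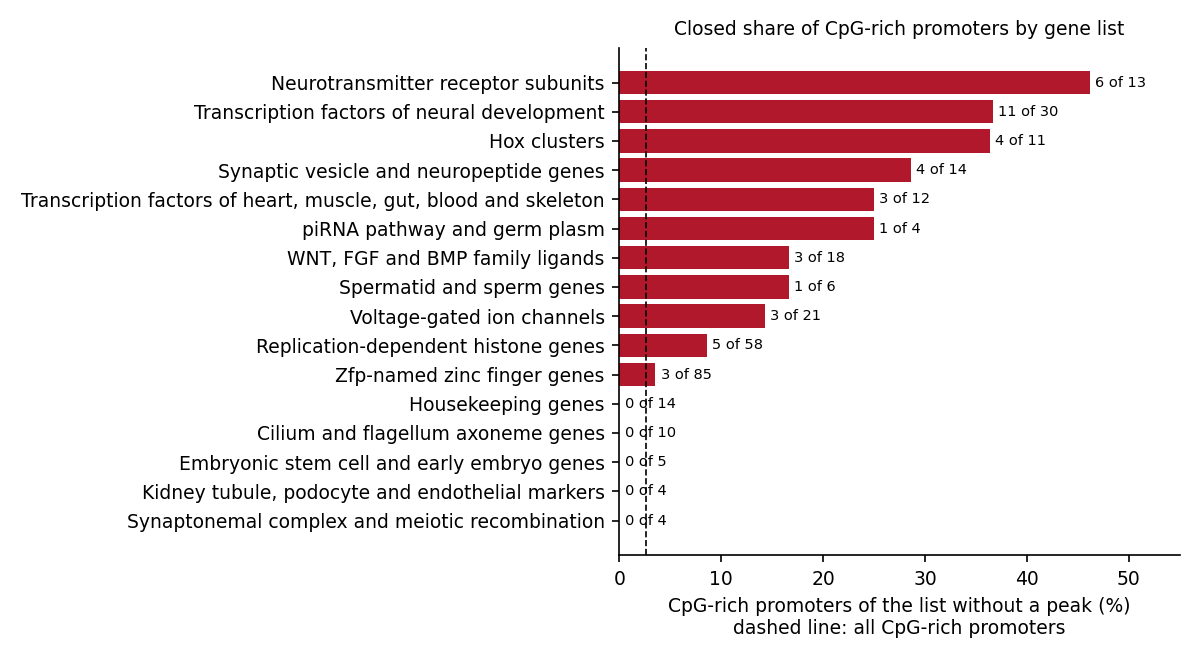
Share of CpG-rich promoters without a peak in any file (horizontal axis, percent) for the 16 gene lists with at least 4 CpG-rich promoters; the counts stand beside the bars and the dashed line marks the 2.63% of all CpG-rich promoters. Lists of neural, patterning and synaptic genes lie between 14.3% and 46.2%, and housekeeping, axoneme and kidney marker lists at 0. The lists at 0 hold at most 14 CpG-rich promoters each, too few to tell them from the dashed line.

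Part of the membership lay in repeated DNA, where reads of similar copies cannot always be placed. Over 50% of the 31-base words of the window recurred elsewhere in the genome in 16 of 156 members (10.3%) and in 17 of 5427 open promoters (0.313%). Among all CpG-rich promoters the share was 0.726%. The 5 histone genes were all among the 16. Hist1h2ap and Hist1h2br start 236 bp apart, Hist1h2bq and Hist1h2ao 268 bp apart, and every 31-base word in their windows recurred. Histone genes were closed at 5 of 58 CpG-rich promoters (8.62%), all 5 of them in repeated windows. The other repeated members were BC107364 and Gm21863, the pair Entpd4 and Entpd4b, 3 neighbours on chromosome 17 (9030025P20Rik, Gm3417 and Gm3435), and 4 neighbours on chromosome 12 (Fam177a, Srp54b, 1700047I17Rik2 and Srp54c) within 105699 bp. The authors' handling of reads with several placements is not stated in the sources used here, and the part of repetition in these absent peaks was not tested. The remaining 140 members had a median GC content of 67.3% and a median CpG ratio of 0.824.

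The surroundings of the members held accessible sites. The median distance from the start to the nearest stricter-set peak of either library was 6424 bp, with a range of 1002 to 566625 bp. In replicate 1 it was 6664 bp and in replicate 2 15730 bp. At CpG-poor promoters without a peak the median was 16719 bp. The nearest peaks of the libraries lay within 100 bp of the same distance at 71 members. At 83 the nearest peak of replicate 1 was the nearer by more than that, and at 2 that of replicate 2. By the stricter set, the farthest members were Gm21863 in repeated DNA (566625 bp) and Dok6, which encodes a docking protein (350401 bp). Zfp804a (216945 bp) and Nrg1 (216169 bp) came next. With wider-set peaks counted too, the distances were 109678 bp at Gm21863, 34208 bp at Dok6, 11562 bp at Zfp804a and 1012 bp at Nrg1. The farthest member was then Entpd4b, also in repeated DNA (137017 bp).

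**Figure D3:**
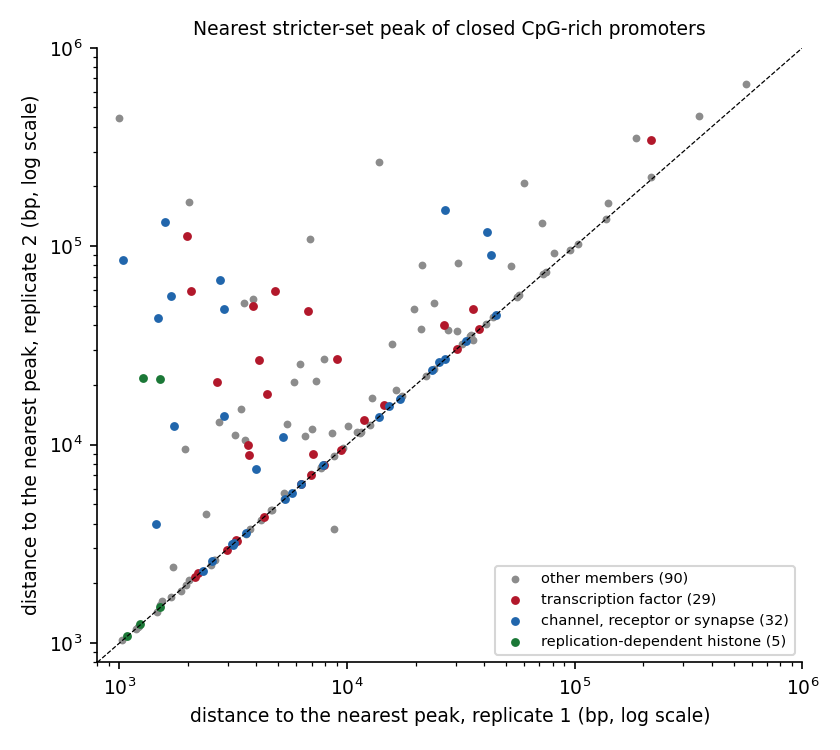
Distance from the start to the nearest stricter-set peak in replicate 1 (horizontal axis, bp, log scale) and replicate 2 (vertical axis, bp, log scale) for the 156 closed CpG-rich promoters, coloured by role group; the dashed line marks equal distances. Of these, 71 lie within 100 bp of the line, 83 are nearer in replicate 1 and 2 in replicate 2.

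Some promoters were members by a few bases. With peaks of all 4 files counted, the nearest to a member lay 1002 bp from the start at Pcdh15, 1006 bp at Rims2, 1012 bp at Nrg1 and 1017 bp at Mroh5. On the other side of the limit, the CpG-rich promoters of Rbmxl2 and Pou3f2 had their nearest peak at 996 and 977 bp. In all, 33 of 156 members (21.2%) had a stricter-set peak within 2.5 kb of the start and 60 (38.5%) had none within 10 kb.

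A shared peak in the gene or within 10 kb of it, outside the promoter window, was present at 101 of 156 members (64.7%), against 80.2% of open CpG-rich promoters and 38.6% of CpG-poor promoters without a peak. The largest numbers were 14 at Sfi1, 14 at Wnt5b, 11 at Rbfox1 and 10 at Tjp1. In bins of 1 kb from 2 to 10 kb upstream of the start a shared peak was found on average at 3.93% of members, 5.77% of open promoters and 2.86% of CpG-poor closed promoters. Over the same distance downstream, that is on the gene's side, it was 2.40%, 5.45% and 3.09%. From 10 to 50 kb the means were 5.06% upstream and 4.46% downstream for the members and 6.39% and 5.97% for open promoters. Members thus lay below open promoters on both sides in these means. Against CpG-poor closed promoters the order downstream depended on the bin, with 4.49% of members and 2.78% of CpG-poor closed promoters at 1 to 2 kb and 3.85% and 3.36% at 2 to 3 kb, although the mean from 2 to 10 kb was lower in members.

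**Figure D4:**
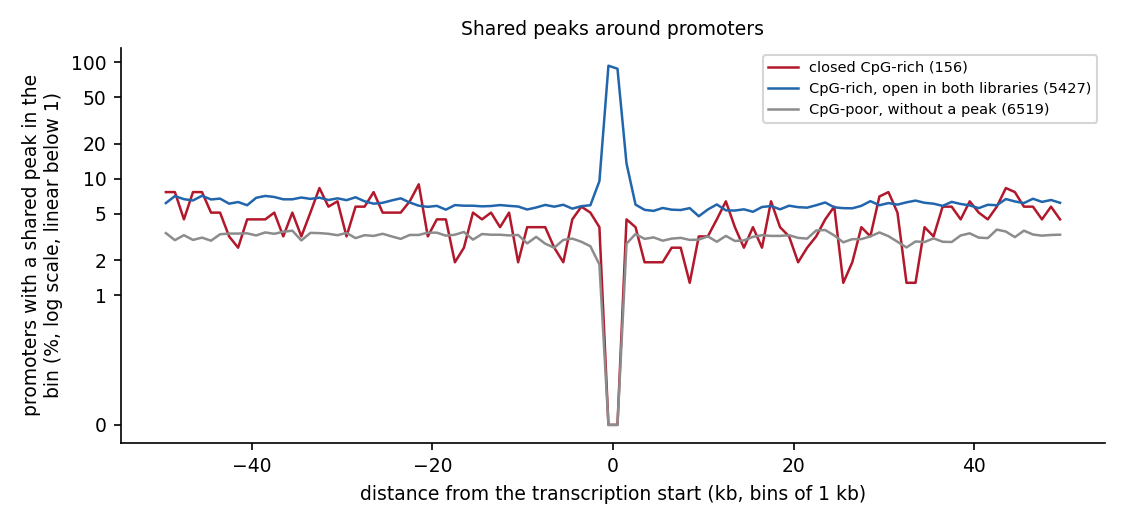
Share of promoters with a shared peak (vertical axis, percent, log scale that is linear below 1) in bins of 1 kb by distance from the start (horizontal axis, kb; negative is upstream), for closed CpG-rich, open CpG-rich and CpG-poor promoters without a peak. The rule sets the closed groups to 0 in the centre bins; from 2 to 10 kb downstream the members average 2.40% and the open promoters 5.45%.

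Spacing and gene length were as follows. The median distance to the nearest other protein-coding start was 40156 bp for members and 21853 bp for open promoters, and 40 of 156 members (25.6%) lay in genes over 100 kb long, against 14.7% of open promoters. Both values were higher still at the 341 CpG-rich promoters with a peak in 1 library or in the wider set only, with a median of 55515 bp and 31.1% of genes over 100 kb, so neither was a trait of closed promoters alone. The nearest other start was open in both libraries for 92 members (59.0%) and without a peak for 50 (32.1%). Among open promoters these shares were 77.6% and 14.7%, and among the 341 promoters 61.0% and 22.0%. In the 140 unrepeated members they were 64.3% and 26.4%. A lower share with an open neighbour was thus not a trait of closed promoters alone. Where neighbouring starts lie so close that their windows overlap, the same peak or its absence can count for both. The lower quartile of the distance to the nearest other start was 1015 bp at open promoters and 14936 bp at members. The rule therefore partly fixes these shares, and to an unequal degree in these groups.

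A closed first promoter did not always mean a closed gene. At 12 of 156 members (7.69%) another annotated start, over 1 kb away, had a stricter-set peak in both libraries, and at open promoters 18.6% did. Fewer members had such a start to offer, 72 of 156 (46.2%) against 70.3%. Among those with such a start, it had a peak in 12 of 72 members and in 1008 of 3815 open promoters, still a lower share in members. At CpG-poor promoters without a peak, 46.1% had another start and 8.90% had a peak there, so the low share was not particular to members. Tjp1, which encodes the tight junction protein ZO-1, was closed at position 65527781 of chromosome 7 and had a peak at the start at 65371239, 156542 bp downstream, with a height of 8.78 in replicate 1 and 5.53 in replicate 2. Ostm1, a lysosomal protein gene, had one 95094 bp downstream with heights of 8.69 and 5.12. Wnt5b had one 77136 bp downstream with heights of 5.61 and 4.12. Nrg1, a ligand of ERBB receptors, had one 874920 bp downstream with heights of 4.81 and 2.40. In each of these 4 the other start belonged to a protein-coding transcript, as it did in Fam19a5. The closed first start, however, was that of a retained intron transcript at Tjp1 and Mroh5 and of a processed transcript at Ostm1, while at the other 9 of the 12, and at 145 of all 156 members, it was that of a protein-coding transcript. At Plk5, Sfi1, Igf2bp1, Mroh5, Ptprt, Igfbpl1 and Trank1 the other start, the one with a peak, belonged to a retained intron or processed transcript.

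Some member windows held signal short of a peak. The deposited rate files list positions with a false discovery rate below 0.05. Replicate 1 had such a position in 11 member windows and replicate 2 in 4, which made 14 members (8.97%) with one in either library and 1 with one in both. Rates and peaks come from the same cuts, so the rule bears on this count, and every open promoter had such a position in both libraries. Of the CpG-poor promoters without a peak 214 of 6519 (3.28%) had one in either library, 2.85% in replicate 1 and 0.966% in replicate 2. The shares of members were higher in each library, 7.05% in replicate 1 and 2.56% in replicate 2. That one was Vstm2l, where the rate was 2.75e-12 in replicate 1 and 2.46e-05 in replicate 2 at the edge of the window, 33 bp from a peak outside it. Pcdh15 (5.01e-07, 12 bp from a peak) and Rims2 (0.00878, 40 bp) also had their lowest rate at the edge. At Rims2 the 186 listed bases lay between position 39198100, just upstream of the start at 39198261, and the edge. At the other 11 the lowest rate lay between 0.0241 at Fbn2 and 0.0487 at Begain, more than 1 kb from any wider-set peak of that library. Wnt5b, Foxd3 and Col15a1 were in replicate 2 only and none of these 11 was listed in both libraries.

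No footprint, a short protected stretch inside a cut-rich site, lay in any member window in replicate 1 or replicate 2. At open promoters 99.9% had one in replicate 1 and 99.6% in replicate 2. In these files 89.4% of footprints of replicate 1 and 90.7% of replicate 2 overlapped a wider-set peak, so the rule nearly fixes this count.

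Motif shares are given without a test. Consensus sites were searched on both strands over 1001 bp around the start, in the 140 unrepeated members and 5410 unrepeated open promoters; sites of different motifs may overlap. The ETS-type site CCGGAAG was in 7 members (5.00%) and in 34.6% of open promoters. It was in 12.4% of the 331 promoters with a peak in 1 library or in the wider set only, and in 19.5% of all 20807 autosomal promoters. The YY1 site AAGATGGCG was in 1 member, Chd5 (0.714%), and in 7.95% of open promoters (3.60% of all promoters). The palindromic site of NRF1 was in 1 member, Nnat (0.714%), and in 3.96% of open promoters (1.71% of all). The CRE TGACGTCA was in 5 members (3.57%), namely Barhl2, Foxd3, Ostm1, Uncx and Zdbf2, and in 5.95% of open promoters (3.33% of all). These 4 sites belong to factors known to act at promoters of widely expressed genes, or to respond to cAMP in the case of CRE.

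Among the other sites, the CCAAT box had the widest gap. It was in 51.4% of members and 61.7% of open promoters (70.3% of all). The E-box CACGTG was in 20.7% of members and 23.2% of open promoters (17.3% of all), the second E2F form GGCGGGAA in 14.3% and 13.8% (7.25% of all), and the GC box GGGCGG in 91.4% and 94.7% (61.4% of all). The TATA box TATAAA was in 12.9% and 17.0% (32.2% of all). The neuronal repressor site RE1 was in 0 members and 3 open promoters, and the kidney factor site HNF1 was in no promoter at all. Such strict consensus letters miss most variants of a site.

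**Figure D5:**
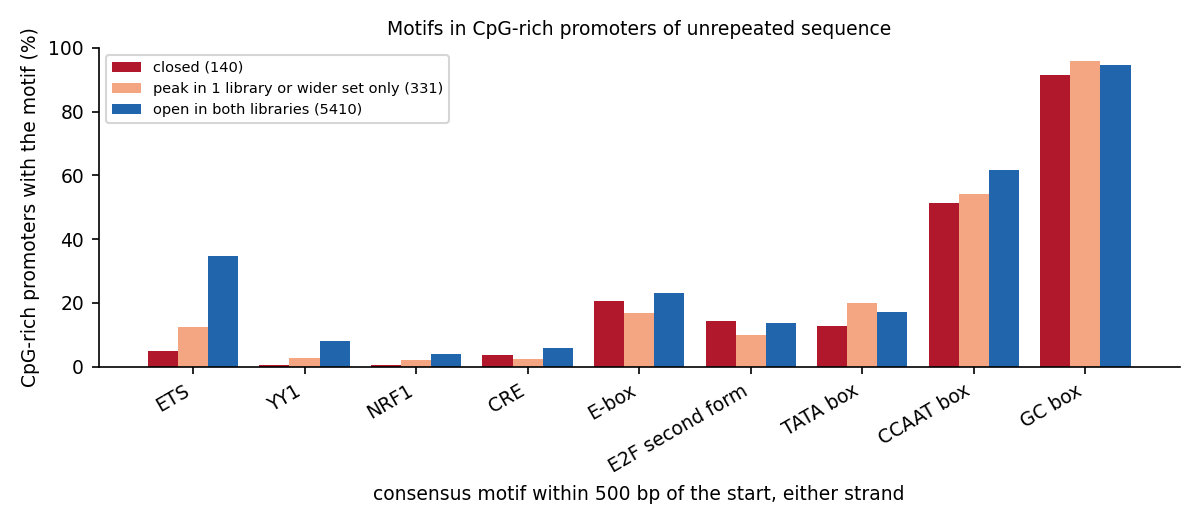
Share of CpG-rich promoters with a consensus motif within 500 bp of the start (vertical axis, percent) for closed promoters, promoters with a peak in 1 library or the wider set only, and promoters open in both libraries, repeated windows left out. The ETS bar rises from 5.00% to 12.4% and 34.6%, while the GC box lies above 91% in the 3 groups.

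Since members had a higher GC content, the ETS comparison was repeated by GC content after the first result was known. Below 60% GC the site was in 3 of 23 members (13.0%) and 43.4% of open promoters, at 60% to 65% in 0 of 28 and 36.1%, at 65% to 70% in 2 of 47 (4.26%) and 29.2%, and at 70% or more in 2 of 42 (4.76%) and 20.1%. The share was lower in members in each of the 4 classes. So were those of YY1 and NRF1, each found in only 1 member. The CRE was not lower in each class. Below 60% GC it was in 2 of 23 members (8.70%) and 7.64% of open promoters, and in the other classes its share was lower in members. The ETS site was placed in open promoters mostly close to the start. There 17.8% had it within 100 bp on either side, against 2 of 140 members (1.43%). From 301 to 500 bp downstream the shares were 4.84% and 1.43%. Seen from the other side, 7 of 1920 unrepeated CpG-rich promoters with the ETS site were closed (0.365%), and 3.36% of the 3961 without it. None of the 29 transcription factor genes among the members had the site, and 2 of the 6 germ cell genes did, Fkbp6 and Papolb.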

How the data were processed

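Per the labels, DNase-seq was run on 2 kidney libraries that form 1 group, and, per the deposited file descriptions, each file was made by the authors from a filtered mm10 alignment of its own library. No source used here names the aligner or the peak caller, or gives a depth. The authors' peak files hold a signal (height) per peak, on a scale that is not stated. The deposited rate files hold a false discovery rate (a q-value) per interval, all below 0.05, and the deposited footprint files the value 0.01 in every row, a p-value or score that is taken as the set's threshold. The stricter peak set of a library was the file with fewer peaks.

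Starts came from GENCODE M21 and bases from RefSeq GRCm38.p6. CpG observed/expected is the number of CpG times the length, divided by the product of the C and G counts. A 31-base word was called repeated when it or its reverse complement recurred on any chromosome. Members, lists and role groups were chosen with earlier results of these data known. Named genes were the members on each of 19 hand-written lists (the 5 with the highest CpG ratio of a long one, the rest named to complete a count), the 10 members with the highest CpG ratio, those with the nearest and farthest peaks, most shared peaks or lowest rates, direct neighbours, and those in repeated sequence. Not every gene that this takes is described, and 1 is not reported here; others named after their values were seen are Gdnf, Dok6 and the imprinted and germ cell genes. Counts and medians were computed with Python 3.11.15, NumPy 2.4.6, pandas 2.3.3 and numba 0.67.0, and tested on simulated data. The 13 alternatives concerned the CpG minimum, window, peak set, starts, chromosome X, overlap, GC content, repeats and each replicate left out. The printed bases are those of C57BL/6J, and CAST/EiJ differences were not analysed here.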

Additional observations from a re-analysis of the deposited data

How the results depend on the processing

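The number of closed CpG-rich promoters, 156, stayed within 1.5 times of that value under 9 of 13 alternatives. It was 310 with a CpG minimum of 0.65, 65 with a minimum of 0.85 and 262 when only stricter-set peaks had to be absent. With 1 library left out it ranged from 161 (without replicate 2) to 328 (without replicate 1). For shares and distances, a move was set against the standard deviation between the values of the 2 libraries at the members. The share with a peak at another start, 7.69%, was 0 when every start had to lack a peak, which that alternative fixes, and was 12.2% without replicate 1 and 13.7% without replicate 2, where a peak in the other library sufficed. The median distance to a peak, 6424 bp, was 6563 bp without replicate 2 and 18055 bp without replicate 1. When only stricter-set peaks had to be absent, the share with a listed rate was 45.8% and that with a footprint 22.1%, since wider-set peaks then lie in the windows. The share with a shared peak nearby, 64.7%, was 65.9% without replicate 1 and 82.6% without replicate 2. In these 2 alternatives any stricter-set peak of the remaining library counted, so the measure itself changed. Every other alternative run moved these shares and the distance by no more than that standard deviation. For the distance it was 6410 bp, close to the value itself. A median of 9858.5 bp, with a window of 2500 bp on each side, therefore counted as unmoved. This scale says little about how stable the distance was. For the share with a shared peak nearby the standard deviation was 13.1 percentage points. No paired analysis was possible because the libraries form 1 group and no test was made. Read totals are not given, so an absent peak means that none was called at an unknown depth.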

Other observations

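Members outside the neural, patterning and germline groups, named here after their values were seen, included genes of several other tissues. Bves, which encodes a membrane protein of heart and muscle, had the highest CpG ratio of all members, 1.08, and its nearest stricter-set peaks lay 27759 bp away in replicate 1 and 37635 bp in replicate 2. Aqp5, the aquaporin of salivary gland and lung, had a ratio of 0.905 and peaks 5292 and 5699 bp away. Tbx21, the T-box factor of T helper lymphocytes, had a ratio of 0.761 and peaks 11890 and 13331 bp away. In these 3 genes both libraries lacked a peak at the start and had the nearest one several kilobases or more away.

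Igf2bp1 and Igf2bp3, RNA-binding proteins of the fetus, were both members. Their nearest peaks were 17120 bp away in both libraries for Igf2bp1, and 4177 and 4157 bp away for Igf2bp3, which had 8 shared peaks in the gene or within 10 kb of it. Genes of the extracellular matrix were represented by Col15a1, a basement membrane collagen with 9 such shared peaks, and Fbn2, the fibrillin of fetal microfibrils with 3. The closed share of CpG-rich promoters by chromosome ran from 0.817% on chromosome 1 (3 of 367) to 5.51% on chromosome 15 (13 of 236).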
